A study of Mus musculus with 9 samples.

Results

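The genes described here are the 35 heat shock proteins, chaperones and heat shock factors of a list chosen by gene name, out of 54532 genes in the deposited table of mouse cortex RNA. The rule used names alone, and the list was drawn up with earlier results of these data known. All 35 were found once in the table by symbol, and all 35 passed the filter on low values, a mean of at least 0.1 FPKM over the mice compared. FPKM counts the fragments on a gene per kilobase of its length, after scaling by a factor for each library. The study compared the cortex of 3 inbred strains that it had studied for differences in stroke damage. The groups were C57BL6/J (B6), the strain of the reference genome, C3H/HeJ (C3H), another classical inbred strain, and WSB/EiJ (WSB), a wild-derived strain. Each group had 3 male mice, 8 to 12 weeks old, and no treatment or induced allele is given for any of them. Each library is 1 mouse, the p-values given here cover the spread between those mice, and the strain of a mouse cannot be told apart from anything else that the mice of 1 strain shared.

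Chaperones bind unfolded proteins and help them to reach or regain their shape. HSP70 proteins do so in cycles of ATP hydrolysis that J-domain proteins start and that exchange factors such as HSP110 and BAG proteins reset, and HSP90 with its co-chaperones acts on partly folded clients such as kinases and steroid receptors. When unfolded protein accumulates, the heat shock factor HSF1 binds heat shock elements in promoters of cytosolic chaperone genes, and a separate response, led by ATF6 and XBP1, acts on chaperone genes of the endoplasmic reticulum (ER) through ER stress elements. Neurons keep a large constitutive pool of HSC70 and HSP90, while the inducible HSP70 genes are known for their rise after ischemia or heat.

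The promoters below carry these elements and are printed because both groups of target genes are followed in the results. RefSeq start sites (GRCm38.p6) were given for 29 of the 35 genes. The heat shock element was searched as 3 units, GAANNTTCNNGAA or its complement TTCNNGAANNTTC, in 300 bases around the start, from 250 before it to 50 after it. It was found in 5 of the 29 genes, Chordc1, Dnajb6, Hspd1, Hspe1 and Hsph1, and in 0.603% of all 32851 promoters of the same length. The ER stress element, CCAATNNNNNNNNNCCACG or its complement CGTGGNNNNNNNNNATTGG, was found in Hspa5, Hsp90b1 and Dnajc3, 3 of the 29, and in 0.119% of all promoters. Hspa1a and Hspa1b had no match to the 3-unit letters in this window. A match is only a match of letters. The shorter pattern GAANNTTC or TTCNNGAA was in 13 of the 29, against 15.1% of all promoters. Each sequence runs in the direction of the gene, ends at the base before its start site, and has the element in capitals. In Hspa5 the stretch is chr2:34771840-34772089 on the plus strand, in Hsp90b1 chr10:86705445-86705694 on the minus strand, and in Dnajc3 chr14:118937682-118937931 on the plus strand. The last one, chr1:55087933-55088147 on the plus strand, lies between the start site of Hspe1 and a divergent start site of Hspd1. The matches counted for both genes are the same letters in this stretch. Hspd1 had a further start site beyond that of Hspe1, whose window, chr1:55088194-55088493, held 0 matches to the 3-unit letters.
Hspa5: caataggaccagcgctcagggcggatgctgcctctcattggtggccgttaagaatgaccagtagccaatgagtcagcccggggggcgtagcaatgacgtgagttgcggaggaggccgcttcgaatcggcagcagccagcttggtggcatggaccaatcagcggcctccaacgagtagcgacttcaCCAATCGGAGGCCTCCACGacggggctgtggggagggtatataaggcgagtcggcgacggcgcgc
Hsp90b1: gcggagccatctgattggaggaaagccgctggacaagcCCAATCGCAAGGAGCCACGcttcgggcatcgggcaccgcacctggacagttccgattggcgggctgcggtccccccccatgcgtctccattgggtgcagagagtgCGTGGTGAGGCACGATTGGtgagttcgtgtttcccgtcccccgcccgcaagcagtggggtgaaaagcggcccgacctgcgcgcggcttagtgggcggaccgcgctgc
Dnajc3: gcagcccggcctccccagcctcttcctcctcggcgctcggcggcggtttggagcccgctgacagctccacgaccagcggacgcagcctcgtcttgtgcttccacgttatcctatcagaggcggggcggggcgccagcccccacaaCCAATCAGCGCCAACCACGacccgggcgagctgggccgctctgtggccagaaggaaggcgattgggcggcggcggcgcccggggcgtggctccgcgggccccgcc
Hspe1: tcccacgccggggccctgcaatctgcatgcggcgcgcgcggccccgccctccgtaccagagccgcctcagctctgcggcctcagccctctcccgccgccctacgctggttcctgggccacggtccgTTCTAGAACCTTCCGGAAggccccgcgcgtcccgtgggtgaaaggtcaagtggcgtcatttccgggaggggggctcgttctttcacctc

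The libraries held 16317439 to 21562429 reads on genes, with medians of 19918248 in B6, 19103630 in C3H and 16877233 in WSB. Cortical markers were high in every strain, with means for the vesicular glutamate transporter Slc17a7 of 281 FPKM in B6, 329 in C3H and 265 in WSB. The summed level of 9 neuron markers was 838 to 942 FPKM in C3H, and those of B6 (916 to 996) and WSB (870 to 977) overlapped it. One of them, the synaptotagmin gene Syt1, was 76.8 to 86.5 FPKM in C3H against 170.1 to 187 in B6, a log2 fold change of -1.11 (adjusted p = 0.00027 by limma). Other marker sums differed between libraries. The summed level of 7 oligodendrocyte markers was 851 to 1070 FPKM in B6 and 801 to 1076 in C3H but 465 to 667 in WSB, that of 5 blood markers was 632 to 1010 in C3H against 217 to 254 in B6 and 249 to 329 in WSB, and that of 6 choroid plexus markers ran from 64.8 to 763 within B6. Those of 6 striatum markers were 432, 236 and 105 FPKM in the B6 mice, 183, 98.1 and 264 in C3H, and 77 to 208 in WSB. The summed level of 6 microglia markers was 133 to 143 FPKM in WSB, 169 to 173 in B6 and 151 to 178 in C3H. That of 5 endothelium markers was 22 to 28.6, 36 to 39.6 and 32.3 to 46 in the same order. Ly6c1, an endothelium marker, was 0 FPKM in WSB. Hippocampus markers (6 genes) summed to 63.9 to 73.7, 35.2 to 52.7 and 47 to 50.1, with Wfs1 alone 53.5 to 58.1 in WSB. Astrocyte markers (5 genes) summed to 171 to 180, 172 to 207 and 189 to 220. The part of these markers in the values of the 35 genes was not tested. In bulk tissue fewer cells of a type and less RNA per cell cannot be told apart.

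Levels per gene length spanned a wide range, and the leading genes were the same in each strain. Of the 35 genes, 4 had a mean over the 9 mice of at least 100 FPKM, 22 lay from 10 to under 100 and 9 lay under 10. The cytosolic HSP90 gene Hsp90ab1 led with 580 FPKM in B6, 657 in C3H and 626 in WSB, followed by Hspa8 with 452, 308 and 329, and by Hsp90aa1 with 254, 216 and 276. These 3 genes made up 51.5% to 54.8% of the summed FPKM of the 35 in a mouse. Stip1, the co-chaperone that links HSP70 to HSP90, came next with 102 FPKM in B6, 106 in C3H and 112 in WSB. The lowest were Hspa1b, Bag3, Hsf2 and Hspa1a, with means over the 9 mice of 4.03, 3.39, 2.54 and 2.42 FPKM. Only 4 of the 34 pairs of neighbours in this order had ranges over the 9 mice that did not overlap, namely Hsp90ab1 above Hspa8, Hsp90aa1 above Stip1, Stip1 above Dnaja2, and Dnajc6 above Hspa12a. The constitutive HSP70 gene therefore stood far above the inducible pair in each strain.

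**Figure D1:**
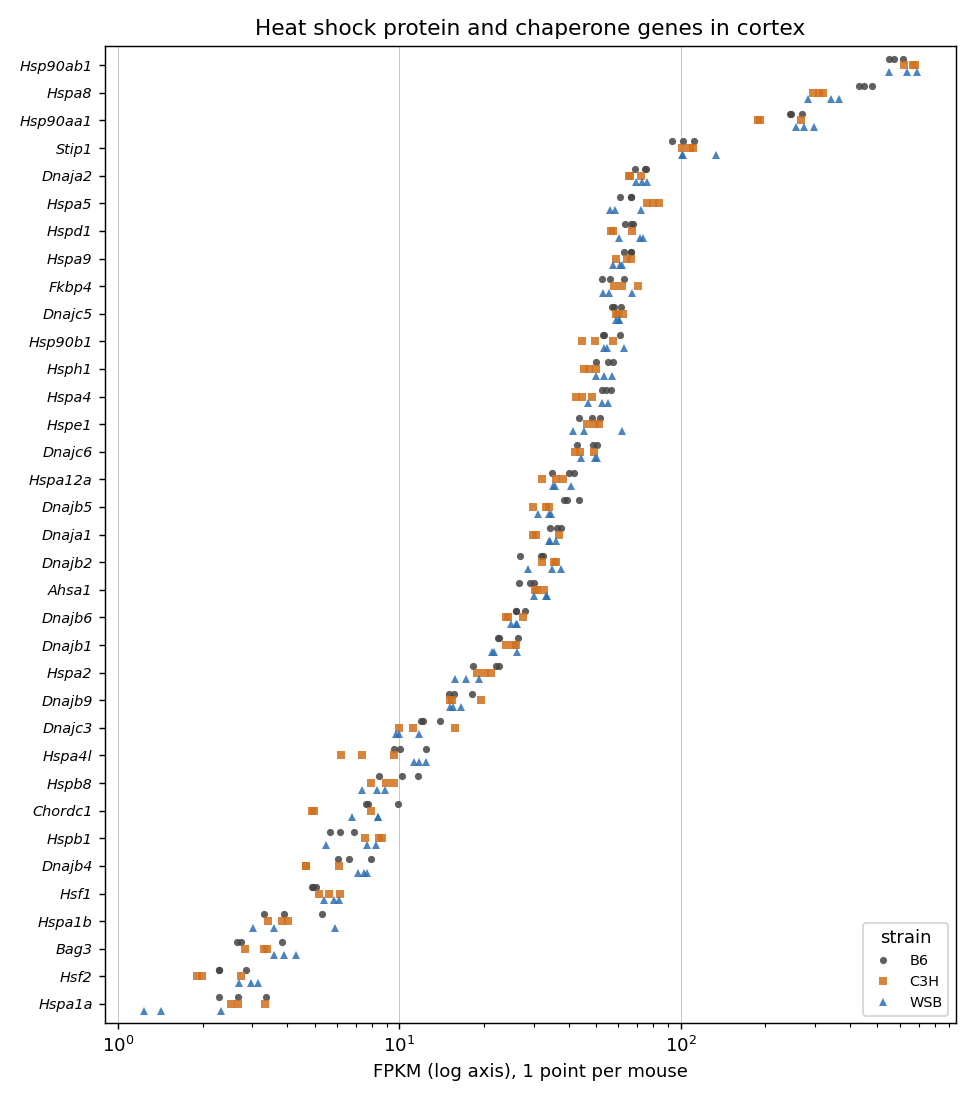
FPKM (log axis) of the 35 heat shock protein and chaperone genes, 1 point per mouse, ordered by the mean over the 9 mice. Hsp90ab1, Hspa8 and Hsp90aa1 lead in each strain, and the 3 B6 mice lie to the right of all C3H and WSB mice for Hspa8 and Dnajb5.

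Few of these genes passed the test between strains. By limma on log2(FPKM + 0.1) with Benjamini-Hochberg adjustment over all genes tested, 1 of 35 was called in C3H minus B6, where 4.64% of 20602 genes were called (2.38% higher and 2.26% lower). In WSB minus B6, limma called 0 of 35, against 5.90% of 20746 genes (2.81% higher and 3.09% lower). In WSB minus C3H it called 0 of 35 as well, against 5.74% of 20607 genes (2.61% higher and 3.13% lower). At an unadjusted p under 0.05 the counts were 8, 6 and 7 of 35, where 24.1%, 20.4% and 23.8% of all genes passed in the same 3 comparisons. With voom weights on reads recovered from the deposited values, 2, 1 and 3 of 35 were called, where 7.22%, 7.43% and 8.53% of all genes were. The values of the mice did not overlap for 8 of 35 genes in C3H against B6 (28.9% of all genes), 5 in WSB against B6 (26.0%) and 5 in WSB against C3H (28.6%).

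The differences were bounded for most of the genes. The 95% interval of the log2 fold change lay within 0.5 of 0, a 1.41-fold change either way, for 26 of 35 genes in C3H minus B6, 26 in WSB minus B6 and 24 in WSB minus C3H. Among genes of at least 1 FPKM the same held for 49.8%, 59.5% and 51.4%, and for the 35 the shares were 74.3%, 74.3% and 68.6%. These sets were not matched for level. Among all genes tested, from 0.1 FPKM, the shares were 31.6%, 37.6% and 32.6%, and only 9 of the 35 lay under 10 FPKM. Whether the shares of the 35 exceed those of other genes of their level was not tested. The median log2 fold change of the 35 was -0.07, -0.00 and 0.04 in the 3 comparisons, beside medians over all genes of -0.00, 0.00 and 0.01. In C3H minus B6, 21 of the 35 had a log2 fold change below 0 and 14 above it.

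**Figure D2:**
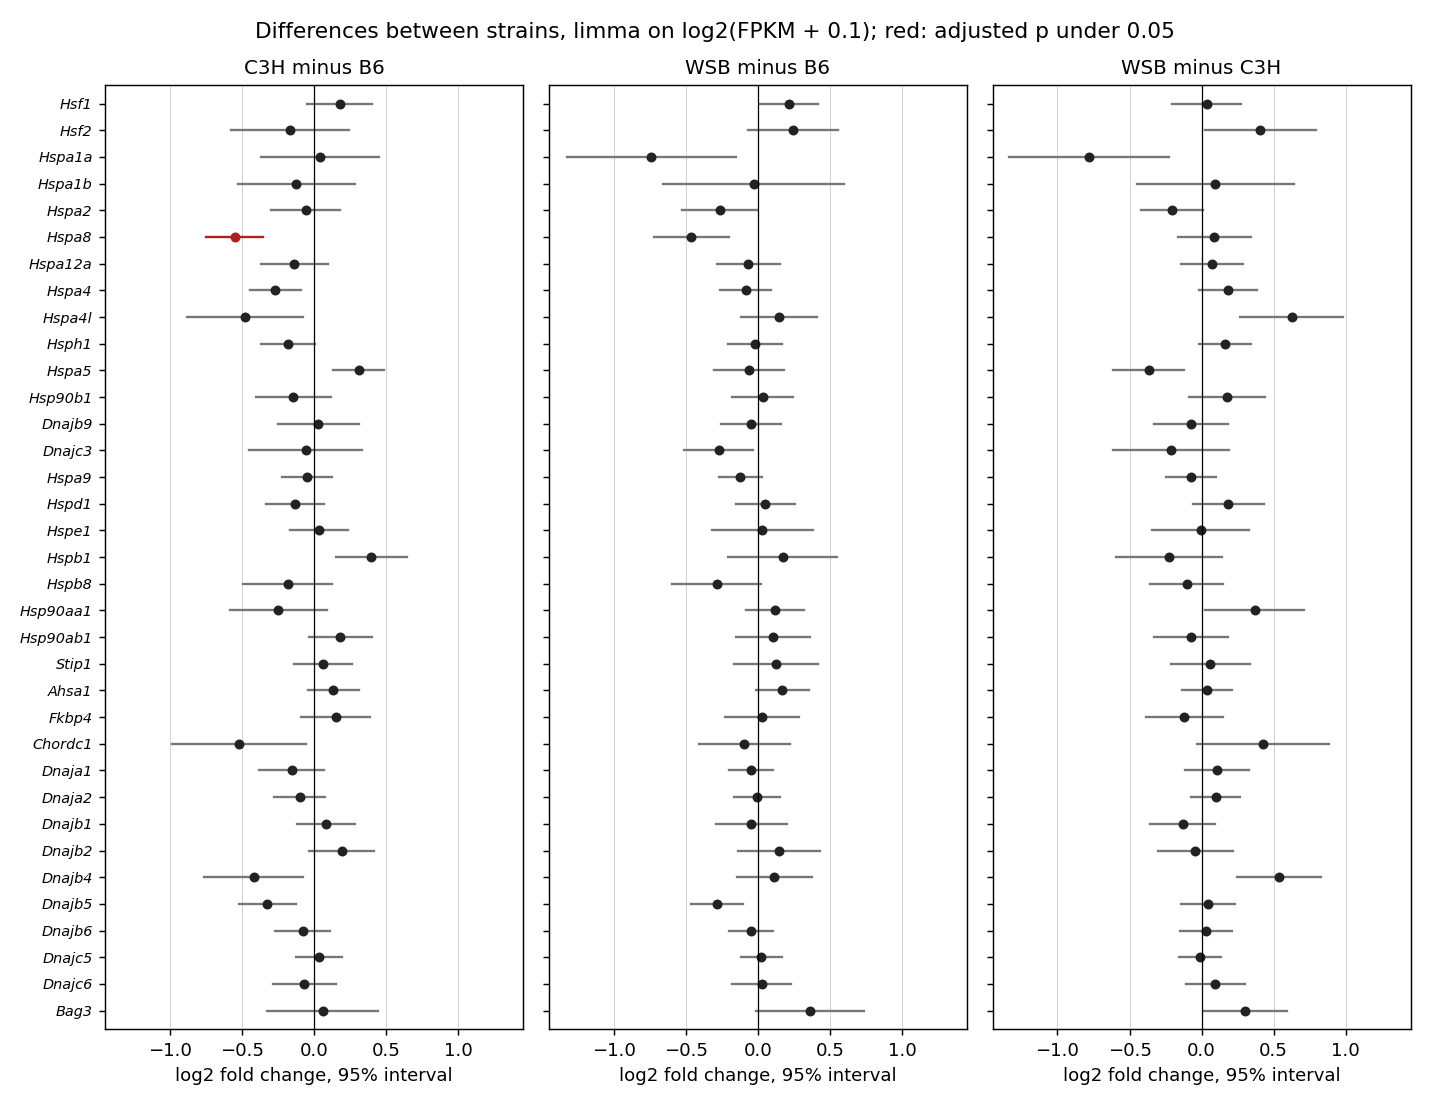
Log2 fold change of each of the 35 genes with its 95% interval, for C3H minus B6, WSB minus B6 and WSB minus C3H, in the order of the gene groups described in the text. Red marks an adjusted p under 0.05, reached only by Hspa8 in C3H minus B6.

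Heat shock factors were expressed at low levels, and neither passed the test. Hsf1, the main activator of the heat shock response, was 5.07, 4.88 and 4.92 FPKM in the B6 mice, 5.17, 5.60 and 6.13 in C3H, and 5.85, 6.08 and 5.38 in WSB. All 6 C3H and WSB values lay above the 3 B6 values, by a small margin. Relative to B6, C3H differed by a log2 fold change of 0.18 ± 0.10 (SE) and WSB by 0.21 ± 0.09, and limma gave adjusted p (Benjamini-Hochberg) of 0.296 and 0.220. Hsf2, which forms complexes with HSF1 and acts in development, was 2.85, 2.28 and 2.29 FPKM in B6, 1.99, 2.75 and 1.90 in C3H, and 3.15, 2.68 and 2.98 in WSB. C3H replicate 2 lay among the values of the other strains and the other two C3H mice lay below them. Its largest log2 fold change was 0.41 ± 0.16 in WSB minus C3H (adjusted p = 0.192 by limma), 0.57 without C3H replicate 2 (adjusted p = 0.0481), and 0.05 with the GC trend of the libraries removed (adjusted p = 0.801).

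The stress-inducible HSP70 genes Hspa1a and Hspa1b, adjacent on chromosome 17, were low in each strain. Hspa1a was 2.28, 2.67 and 3.37 FPKM in the B6 mice, 2.52, 2.68 and 3.32 in C3H, and 1.24, 2.32 and 1.42 in WSB. WSB lay below C3H in all 3 mice and overlapped B6 through WSB replicate 2. Its log2 fold change was -0.78 ± 0.24 in WSB minus C3H and -0.74 ± 0.25 in WSB minus B6, with adjusted p of 0.109 and 0.150 by limma. Hspa1b was 3.31, 3.89 and 5.29 FPKM in B6, 3.81, 3.42 and 4.01 in C3H, and 3.02, 5.91 and 3.57 in WSB, with 1 high mouse in WSB and overlap of all strains. Its log2 fold changes were -0.12 in C3H minus B6, -0.03 in WSB minus B6 and 0.09 in WSB minus C3H, with 95% intervals from -0.53 to 0.28, from -0.66 to 0.60 and from -0.45 to 0.64.

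The values of this pair are uncertain gene by gene, because their longest transcripts align at 99.2% identity over 2201 bases and how reads shared by both were counted is not given in the sources used here. Of the reads on the pair, Hspa1a held 42.2%, 42.1% and 40.3% in the B6 mice, 41.1%, 45.3% and 46.7% in C3H, but 30.2%, 29.3% and 29.6% in WSB. The WSB shares had 95% Wilson intervals between 24.3% and 36.9%, on 202 to 406 reads, which cover counting error only. When both genes were summed, the log2 fold change in WSB minus C3H was -0.23 (adjusted p = 0.574 by limma), so the lower Hspa1a of WSB was not matched by a call on the pair.

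Hspa8 was the one gene of the 35 that passed the test. It encodes HSC70, the constitutive cytosolic HSP70 that among other tasks uncoats clathrin vesicles at synapses. Hspa8 (ENSMUSG00000015656) spans 40800984 to 40810087 on the plus strand of chromosome 9 (GRCm38). It was 429, 449 and 477 FPKM in the B6 mice, 320, 295 and 310 in C3H, and 341, 364 and 283 in WSB. All 3 B6 mice lay above all 6 mice of the other strains, while C3H and WSB overlapped. Its level fell in C3H relative to B6, with a log2 fold change of -0.55 ± 0.08 (SE, n = 3 mice each), which is 68.3% of the B6 mean, and an adjusted p of 0.0121 by limma. In WSB minus B6 the log2 fold change was -0.46 ± 0.11, and the adjusted p of 0.0594 missed the threshold. WSB minus C3H was 0.09, with a 95% interval from -0.17 to 0.34.

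The call on Hspa8 rested on few mice but not on few reads. Leaving out B6 replicate 2, B6 replicate 3 or C3H replicate 3 brought the adjusted p in C3H minus B6 to 0.0691, 0.0520 and 0.0598 by limma, with log2 fold changes of -0.55, -0.51 and -0.56. The same 3 fits called 504, 569 and 498 genes in all, against 956 with no mouse left out. Hspa8 had 22232 to 43714 reads per library, and 11 genes with similar transcripts, mostly processed copies, had 33 to 174 reads in all. Within each library, Hspa8 relative to Hsp90ab1 was 0.782, 0.784 and 0.772 in the B6 mice, 0.470, 0.474 and 0.463 in C3H, and 0.536, 0.528 and 0.513 in WSB. This ratio was looked at after the values were seen. It varied little within a strain and separated the 3 strains without overlap. Its denominator Hsp90ab1 was higher in C3H than in B6 without overlap, so the ratio does not measure Hspa8 alone. How often ratios of other genes separate the strains was not tested.

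**Figure D3:**
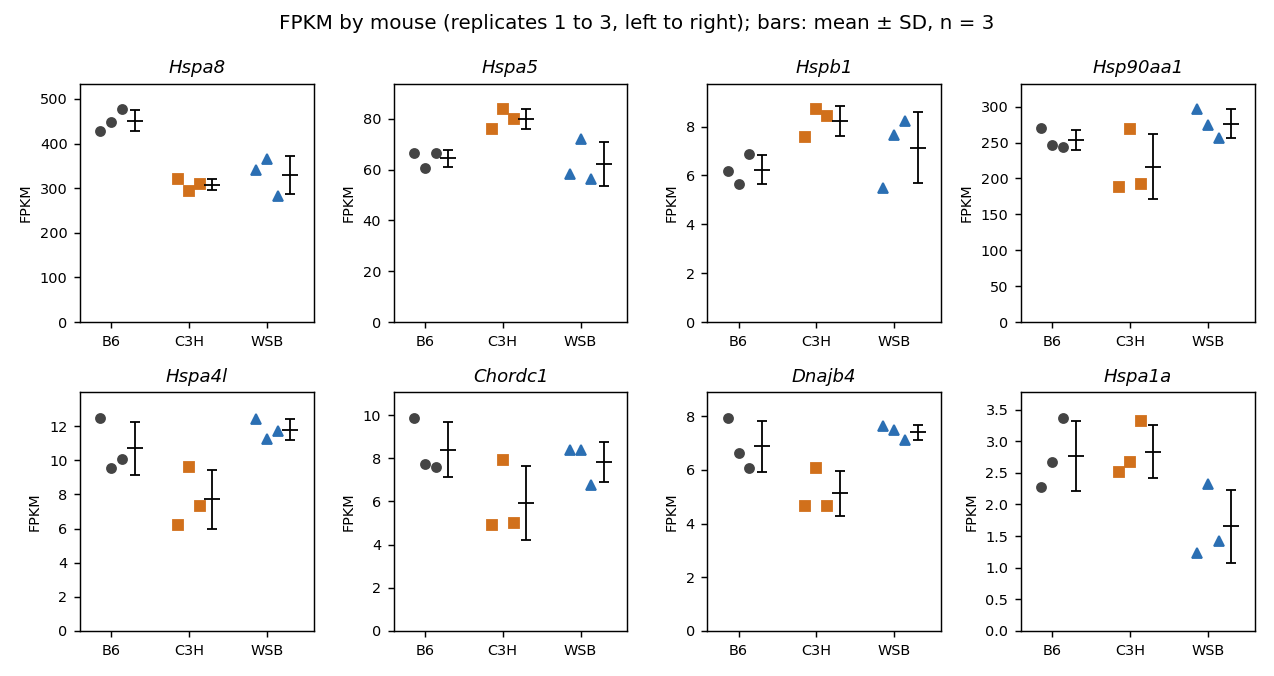
FPKM of 8 of the genes in each mouse (replicates 1 to 3 from left to right) with the mean ± SD of each strain (n = 3). The 3 B6 mice are highest for Hspa8, the 3 C3H mice are highest for Hspa5, and C3H replicate 2 stands above the other C3H mice for Hsp90aa1, Hspa4l, Chordc1 and Dnajb4.

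The other HSP70 genes of the cytosol differed less. Hspa2, best known from the testis and also made in the brain, had means of 20.96 ± 2.40 FPKM in B6, 20.03 ± 1.15 in C3H and 17.4 ± 1.7 in WSB (SD, n = 3), and the WSB values overlapped those of both other strains. Hspa12a, a distant HSP70 relative of neurons, had means of 39.0, 35.4 and 37.2 FPKM, and its 3 log2 fold changes lay between -0.14 and 0.07.

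HSP110 proteins act as exchange factors for HSP70 and drive the breakup of aggregates with it. Hspa4l was 12.5, 9.54 and 10.1 FPKM in the B6 mice, 6.22, 9.59 and 7.34 in C3H, and 12.4, 11.2 and 11.7 in WSB. The C3H mice lay below the WSB mice without overlap, and C3H replicate 2 was the highest of its strain. The log2 fold change of Hspa4l was 0.63 ± 0.15 in WSB minus C3H (adjusted p = 0.0612 by limma) and -0.48 ± 0.17 in C3H minus B6 (adjusted p = 0.155). Hspa4 had means of 54.5 ± 1.9 FPKM in B6, 45.2 ± 3.0 in C3H and 51.4 ± 4.0 in WSB (SD, n = 3), and Hsph1, known for its induction by heat, had 54.1 ± 3.8, 47.6 ± 2.3 and 53.4 ± 3.4. The C3H mice had the lowest mean for all 3 HSP110 genes, and the 3 C3H values of Hspa4 lay below the 3 B6 values. None of these differences passed the test.

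In the ER, BiP is the HSP70 that binds proteins entering the secretory pathway and holds the stress sensors inactive. Its gene Hspa5 (ENSMUSG00000026864), on chromosome 2, whose promoter with 1 ER stress element is printed above, was 66.4, 60.7 and 66.3 FPKM in the B6 mice, 75.9, 83.8 and 79.7 in C3H, and 58.2, 71.9 and 56.3 in WSB. All 3 C3H mice lay above all mice of the other strains, and B6 and WSB overlapped. For Hspa5 the log2 fold change was 0.31 ± 0.07 in C3H minus B6 and -0.37 ± 0.10 in WSB minus C3H, with adjusted p of 0.0662 and 0.0930 by limma. With voom weights the adjusted p of the same 2 differences was 0.0459 and 0.0437.

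For the other ER chaperones of the list the C3H values, as deposited, overlapped those of B6 and WSB. Hsp90b1, the HSP90 of the ER with 2 ER stress elements in its promoter, had means of 55.7 ± 4.5 FPKM in B6, 50.6 ± 6.6 in C3H and 57.01 ± 5.16 in WSB (SD, n = 3). Dnajb9, a J-domain partner of BiP, had 16.3 ± 1.6, 16.7 ± 2.4 and 15.7 ± 0.7, and Dnajc3, which acts with BiP and restrains the kinase PERK, had 12.6 ± 1.1, 12.3 ± 3.1 and 10.45 ± 1.09. In C3H minus B6 the log2 fold changes of these 3 genes were -0.14, 0.03 and -0.06, each with a 95% interval that included 0. With the GC trend of the libraries removed, as described below, Dnajb9 was 0.32 in C3H minus B6 (adjusted p = 0.0296 by limma) and -0.32 in WSB minus C3H (adjusted p = 0.0717), and Hspa5 was 0.41 (adjusted p = 0.00697) and -0.45 (adjusted p = 0.0517).

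A wider list of 22 genes of the unfolded protein response and ER folding, none of them among the 35, was also counted. In C3H minus B6, limma called 3 of 22 higher and 0 lower, where 2.38% of all genes were called higher and 2.26% lower. The median log2 fold change of the 22 was 0.12, and the mice did not overlap for 10 genes that were higher and 4 that were lower in C3H. Over all genes 28.9% did not overlap, in either direction. The 3 genes that rose were Ddit3, the stress-induced transcription factor CHOP, with a log2 fold change of 0.50 ± 0.09, Manf, a secreted ER stress protein, with 0.50 ± 0.09, and Sdf2l1, a BiP co-factor, with 0.57 ± 0.12. Their adjusted p was 0.0244, 0.0252 and 0.0415 by limma.

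Sdf2l1 was 13.7, 12.3 and 16.3 FPKM in the B6 mice, 21.1, 19.1 and 22.7 in C3H, and 8.90, 14.2 and 10.6 in WSB. Ddit3 was 17.2, 17.6 and 16.5 FPKM in B6, 24.8, 21.7 and 26.6 in C3H, and 15.5, 17.6 and 14.8 in WSB. In both genes every C3H mouse lay above every B6 and WSB mouse, as for Hspa5. In WSB minus B6, 0 of 22 were called by limma, against 5.90% of all genes, and the log2 fold change was above 0 for 9 of 22.

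In WSB minus C3H, limma called 1 of the 22 higher and 6 lower, where 2.61% of all genes were called higher and 3.13% lower. The median log2 fold change of the 22 was -0.14. The 5 largest were all lower in WSB, namely Sdf2l1 with -0.92 ± 0.17, Ddit3 with -0.61 ± 0.10, Manf with -0.56 ± 0.10, Creld2, an ER stress-induced folding factor, with -0.47 ± 0.10, and Xbp1, a transcription factor of the response, with -0.41 ± 0.08. Their adjusted p ranged from 0.0180 to 0.0380 by limma. Both comparisons share the C3H mice. Of these calls, those on Ddit3, Manf and Sdf2l1 in WSB minus C3H passed in 12 of 18 alternatives each and in 2 of the 6 that left out a mouse. Creld2 passed in 9 of 18 and Xbp1 in 11, each in 1 of the 6. In C3H minus B6, Ddit3 and Manf passed in 11 of 18 and 1 of 6, and Sdf2l1 in 10 of 18 and 2 of 6. With the GC trend removed, Ddit3 and Manf still passed there and Sdf2l1 did not (adjusted p = 0.0583 by limma). The blood markers given above were also higher in C3H than in the other strains. Whether blood in the tissue had a part in these differences was not tested.

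**Figure D4:**
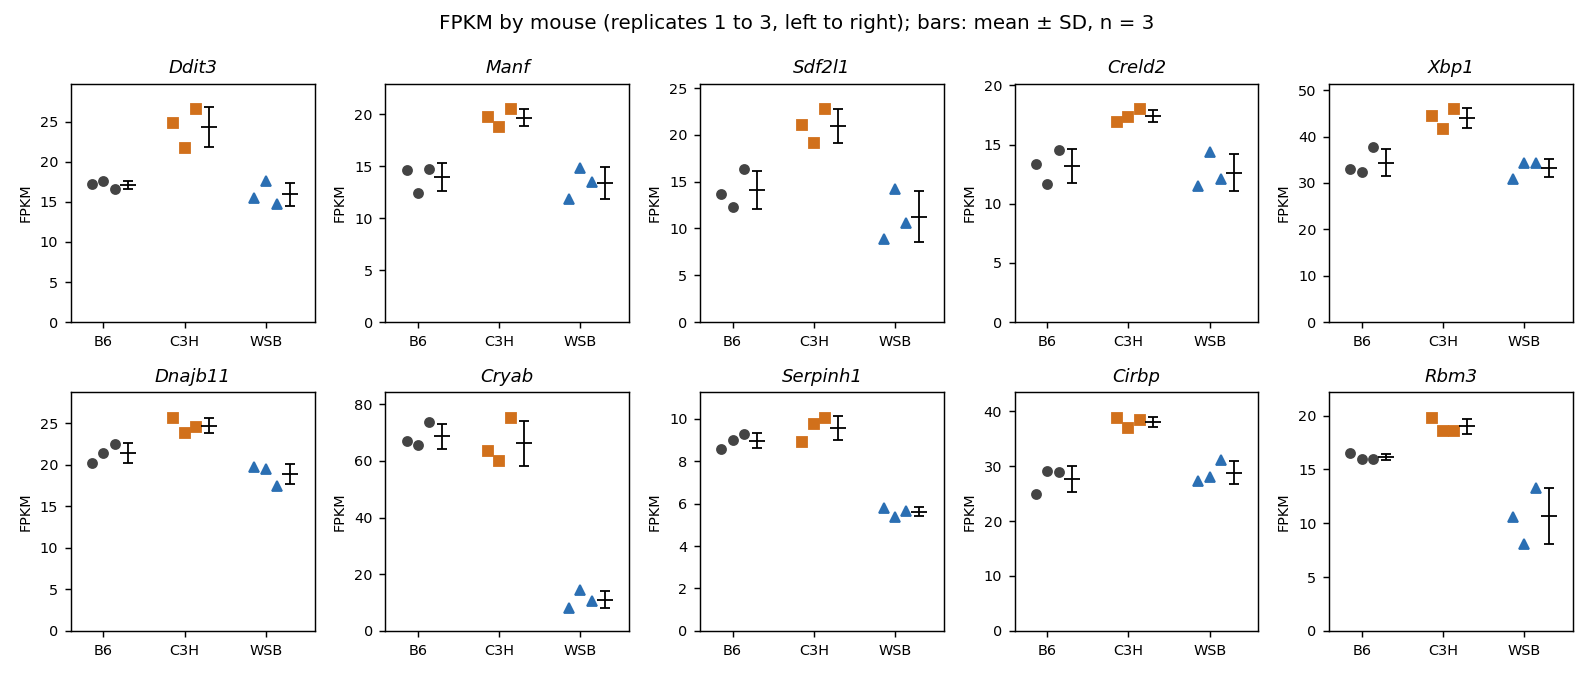
FPKM in each mouse (replicates 1 to 3 from left to right) with the mean ± SD of each strain (n = 3) for 10 genes of the wider lists. C3H is highest in every panel of Ddit3, Manf, Sdf2l1, Creld2, Xbp1, Dnajb11 and Cirbp, and WSB is lowest for Cryab, Serpinh1 and Rbm3.

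Mitochondrial chaperones import and fold proteins of the matrix, and none of their genes on the list passed the test. Hspd1, the HSP60 chaperonin, was 67.6, 63.4 and 66.7 FPKM in the B6 mice, 56.4, 66.9 and 57.3 in C3H, and 71.8, 73.3 and 60.4 in WSB. The strains overlapped, and its largest log2 fold change was 0.19 in WSB minus C3H, with a 95% interval from -0.06 to 0.43. Hspe1, its HSP10 partner, had means of 47.8 ± 4.2 FPKM in B6, 49.0 ± 2.4 in C3H and 49.5 ± 10.7 in WSB (SD, n = 3), with 61.7 in WSB replicate 2. The stretch printed above lies upstream of a start site of each gene. The genes overlap on opposite strands of chromosome 1 from 55088132 to 55088243, and whether reads were counted by strand is not given in the sources used here. Hspa9, the mitochondrial HSP70, had means of 65.3, 63.2 and 60.1 FPKM. Its 95% intervals stayed within -0.27 and 0.13 in the 3 comparisons. Of 8 other mitochondrial chaperones and proteases, 8 subunits of the CCT chaperonin and 6 subunits of prefoldin, which hands actin and tubulin to CCT, limma called 0 in each comparison. Over all genes the called shares were 4.64% in C3H minus B6, 5.90% in WSB minus B6 and 5.74% in WSB minus C3H.

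Small heat shock proteins hold unfolded proteins without ATP and in the brain are made mainly by glia and vessels. Hspb1, the counterpart of human HSP27, was 6.18, 5.67 and 6.87 FPKM in the B6 mice, 7.56, 8.71 and 8.45 in C3H, and 5.48, 7.67 and 8.23 in WSB. The C3H mice lay above the B6 mice, and WSB overlapped both. In C3H minus B6 the log2 fold change was 0.40 ± 0.10, with an adjusted p of 0.0823 by limma. Hspb8, which pairs with BAG3 in selective autophagy, had means of 10.1 ± 1.6 FPKM in B6, 8.82 ± 0.82 in C3H and 8.20 ± 0.78 in WSB (SD, n = 3), with overlap of all strains.

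A small heat shock gene outside the 35 differed far more. Cryab, which encodes alpha-B crystallin and in the brain is made mostly by oligodendrocytes and astrocytes, was 67.0, 65.5 and 73.8 FPKM in the B6 mice, 63.5, 59.9 and 75.2 in C3H, and 8.17, 14.3 and 10.7 in WSB. WSB was lower in every mouse, with log2 fold changes of -2.66 ± 0.18 against B6 and -2.60 ± 0.19 against C3H, and adjusted p of 0.000232 and 0.000444 by limma. Both calls passed in all 18 alternatives, though the median-ratio rescaling and the sum of Hspa1a and Hspa1b could hardly change them. Hspb2, the neighbouring small heat shock gene, which overlaps Cryab on the other strand of chromosome 9 over 1030 bases, had 0 reads in each WSB mouse, 2 to 7 reads in B6 and 6 to 20 in C3H, so its reads cannot be assigned between the genes with certainty. All 7 oligodendrocyte markers were lower in WSB than in B6 without overlap, 2 of the 7 passed the test, and their median log2 fold change was -0.67. Over all genes 26.0% did not overlap in that comparison and 5.90% were called. The part of oligodendrocyte content in the level of Cryab was not tested.

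Neither cytosolic HSP90 gene passed the test. Hsp90aa1, the inducible form, was 270, 247 and 244 FPKM in the B6 mice, 189, 269 and 192 in C3H, and 296, 275 and 256 in WSB. C3H replicates 1 and 3 lay below every other mouse, and C3H replicate 2 lay among the B6 and WSB values. The log2 fold change was 0.37 ± 0.15 in WSB minus C3H and -0.25 ± 0.14 in C3H minus B6, with adjusted p of 0.186 and 0.324 by limma. Without C3H replicate 2 they were 0.53 and -0.41, with adjusted p of 0.0215 and 0.0317 by limma. With the GC trend of the libraries removed they were 0.23 and -0.08, with adjusted p of 0.199 and 0.622. Hsp90ab1, the constitutive form, had means of 580 ± 36 FPKM in B6, 657 ± 31 in C3H and 626 ± 70 in WSB (SD, n = 3), and the 3 C3H mice lay above the 3 B6 mice by a small margin. The ratio of Hsp90ab1 to Hsp90aa1 lay between 2.03 and 2.53 in B6 and between 2.14 and 2.51 in WSB, and was 3.605 and 3.496 in C3H replicates 1 and 3, and 2.32 in C3H replicate 2.

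Among the HSP90 co-chaperones, Chordc1 had the largest fold change, which did not pass the test. Its protein binds HSP90. It was 9.87, 7.71 and 7.61 FPKM in the B6 mice, 4.91, 7.90 and 4.98 in C3H, and 8.37, 8.39 and 6.78 in WSB. As for Hsp90aa1, C3H replicates 1 and 3 were below all other mice while C3H replicate 2 was not. The log2 fold change was -0.52 ± 0.20 in C3H minus B6, with an adjusted p of 0.174 by limma, and -0.74 without C3H replicate 2, with an adjusted p of 0.0263. Ahsa1, which stimulates the HSP90 ATPase, had means of 28.6 ± 1.8, 31.4 ± 1.2 and 32.2 ± 1.9 FPKM in B6, C3H and WSB (SD, n = 3), and the C3H mice lay above the B6 mice. Stip1 and Fkbp4, the co-chaperones of steroid receptor complexes, overlapped between all strains, with Fkbp4 at 57.1, 63.4 and 58.5 FPKM. WSB replicate 2 had the highest Stip1 of the 9 mice, 133 FPKM against 93.3 to 111 in the others.

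The J-domain proteins, which deliver clients to HSP70, included Dnajb4, which came nearest to the threshold of the genes not called. Dnajb4, a cytosolic HSP40, was 7.94, 6.63 and 6.07 FPKM in the B6 mice, 4.64, 6.09 and 4.64 in C3H, and 7.65, 7.48 and 7.10 in WSB. WSB lay above C3H in every mouse, with C3H replicate 2 again the highest of its strain. In WSB minus C3H the log2 fold change was 0.53 ± 0.12, with an adjusted p of 0.0530 by limma. Dnajb5, a J-domain protein of brain and muscle, had means of 40.4 ± 2.8 FPKM in B6, 32.3 ± 2.2 in C3H and 33.2 ± 1.8 in WSB (SD, n = 3). As for Hspa8, the 3 B6 mice lay above all 6 others, and the log2 fold changes were -0.33 in C3H minus B6 and -0.28 in WSB minus B6 (adjusted p of 0.0804 and 0.0868 by limma).

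The remaining J-domain genes varied less. Dnajc5, the synaptic vesicle protein CSP-alpha that works with HSC70, had the lowest coefficient of variation of the 35 in C3H and in WSB, with means of 58.8 ± 2.3, 60.3 ± 1.9 and 59.8 ± 0.7 FPKM in B6, C3H and WSB (SD, n = 3). Its 95% intervals stayed within -0.16 and 0.19. Dnajc6, the auxilin that recruits HSC70 to clathrin coats, had 47.3, 45.0 and 48.0 FPKM. Neither partner of HSC70 at the synapse had values that separated B6 from the other strains. Dnaja1 had 36.0, 32.4 and 34.8 FPKM, Dnaja2 72.8, 67.9 and 72.6, and both overlapped between the strains. Dnaja1 overlaps Smu1 on the opposite strand of chromosome 4, so its reads are uncertain in that stretch. Dnajb1, the main stress-induced partner of HSP70, had means of 23.8, 25.1 and 23.1 FPKM, Dnajb2 of neurons 30.4, 34.6 and 33.8, and Dnajb6, which suppresses polyglutamine aggregation, 26.7, 25.3 and 25.8.

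Bag3 is an HSP70 exchange factor that targets clients to autophagy and is a known HSF1 target. It was 2.64, 2.74 and 3.83 FPKM in the B6 mice, 3.38, 2.82 and 3.30 in C3H, and 4.30, 3.90 and 3.59 in WSB. WSB lay above C3H in all mice and overlapped B6 through B6 replicate 3. Bag3 had a log2 fold change of 0.36 ± 0.16 in WSB minus B6 and 0.30 ± 0.12 in WSB minus C3H, with adjusted p of 0.262 and 0.191 by limma.

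Differences among the C3H mice, and among the B6 mice, moved with the GC content of the transcripts. Over the 35 genes, Spearman's rho between GC content and the deviation from the strain mean was -0.76 in C3H replicate 2, against 0.53 and 0.63 in the other two C3H mice, and it was -0.81 in B6 replicate 1, 0.37 in B6 replicate 2 and 0.77 in B6 replicate 3. In the WSB mice it was -0.36, 0.35 and -0.04. These genes share their libraries, and rho is given as a description only. The lowest GC contents of the 35 were 35.7% in Chordc1, 36.2% in Hsf2, 39.5% in Hspa4l, 40.6% in Dnajb9 and 41.2% in Dnaja1, and Dnajb4 had 42.0%. Across the 35 genes, rho between GC content and the log2 fold change was 0.52 in C3H minus B6, 0.01 in WSB minus B6 and -0.51 in WSB minus C3H. Over all genes of at least 1 FPKM it was 0.485, 0.114 and -0.397, so the relation was not particular to the 35.

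Once the dependence on GC content had been taken out of every library, the log2 fold change in C3H minus B6 of Chordc1 was -0.12, that of Hspa4l -0.16 and that of Dnajb4 -0.18. Hspa8 kept its direction with -0.46 (adjusted p = 0.0295 by limma), and 3 other genes also passed, Hspa5 with 0.41 (adjusted p = 0.00697), Dnajb9 with 0.32 (adjusted p = 0.0296) and Dnajb5 with -0.44 (adjusted p = 0.00576). The count of called genes was then 4 of 35 in C3H minus B6 (5.67% of all genes), 0 in WSB minus B6 (6.84%) and 1 in WSB minus C3H (7.00%), the latter being Dnajb4 with 0.33. The log2 fold change of Hspa4l in WSB minus C3H was 0.35 after the removal, and that of Hspb1 in C3H minus B6 was 0.22 (adjusted p of 0.0564 and 0.378 by limma). Without C3H replicate 2 and with the values as deposited, limma called 6 of 35 in C3H minus B6, Chordc1, Dnajb4, Hsp90aa1, Hspa4, Hspa4l and Hspa8, all lower in C3H, and 5 of 35 in WSB minus C3H. In the same fits 11.2% and 9.71% of all genes were called. The part of GC content in these differences was measured only by this removal.

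**Figure D5:**
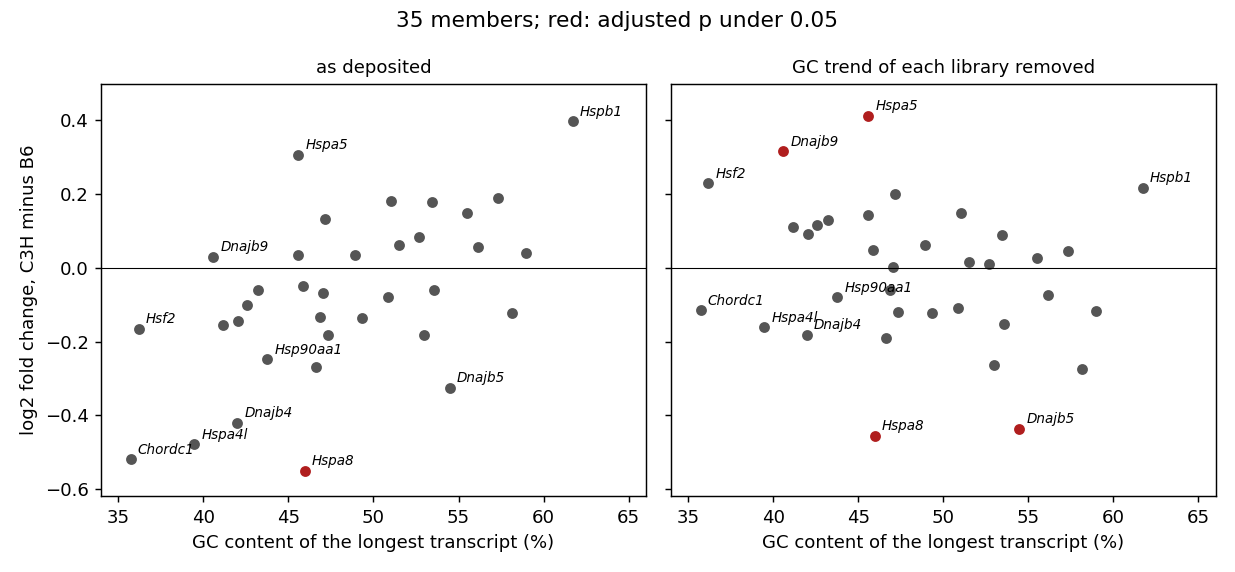
Log2 fold change in C3H minus B6 of the 35 genes against the GC content of the longest transcript (%), as deposited (left) and after removal of the GC trend of each library (right). Red marks an adjusted p under 0.05, which is Hspa8 on the left and Hspa8, Hspa5, Dnajb5 and Dnajb9 on the right, and Chordc1, Hspa4l and Dnajb4 lie closer to 0 on the right.

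Another list held 31 chaperones and co-chaperones, mainly of the cytosol but with some ER proteins such as Dnajb14. Of these, limma called 1 higher and 1 lower in C3H minus B6, 4 lower in WSB minus B6 and 3 lower in WSB minus C3H. In the same comparisons 4.64%, 5.90% and 5.74% of all genes were called. The 3 calls in WSB minus C3H were Cryab, Serpinh1 and Hspb2, which overlaps Cryab. Hspb2 had a log2 fold change of -2.81 ± 0.48 (adjusted p = 0.0171 by limma), on 0 reads in WSB and 6 to 20 in C3H. The calls in C3H minus B6 were Nudc, an HSP90 co-factor of dynein regulators, with 0.60 ± 0.10, and Dnajb14, a J-domain protein of the ER membrane, with -0.69 ± 0.14 (adjusted p of 0.0178 and 0.0335 by limma). Dnajb14 was also lower in WSB than in B6, with -0.40 ± 0.09. Serpinh1, the collagen chaperone HSP47, was 8.60, 9.02 and 9.30 FPKM in the B6 mice, 8.93, 9.76 and 10.04 in C3H, and 5.81, 5.39 and 5.67 in WSB. The 3 WSB mice lay below all others, with log2 fold changes of -0.66 ± 0.08 against B6 and -0.76 ± 0.09 against C3H (adjusted p of 0.00322 and 0.00333 by limma). Both of these calls passed in all 18 alternatives, with the same limit as for Cryab. Sugt1, an HSP90 co-chaperone, was lower in WSB than in B6 by limma, with -0.35 ± 0.07 and an adjusted p of 0.0400.

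Genes of handling, temperature and stress hormones were read in the same libraries. Cirbp, a cold-induced RNA-binding protein, was 24.9, 29.1 and 28.9 FPKM in the B6 mice, 38.8, 37.0 and 38.3 in C3H, and 27.3, 28.0 and 31.2 in WSB. It was higher in C3H than in B6, with 0.46 ± 0.08, and lower in WSB than in C3H, with -0.40 ± 0.07 (adjusted p of 0.0214 and 0.0244 by limma). Rbm3, the other cold-induced gene, was 16.5, 16.0 and 16.0 FPKM in B6, 19.8, 18.6 and 18.6 in C3H, and 10.6, 8.10 and 13.3 in WSB, with -0.86 ± 0.17 in WSB minus C3H (adjusted p of 0.0286). Of 7 glucocorticoid-responsive genes, limma called only Per1, lower in WSB than in B6 with -0.33 ± 0.06, and of 12 immediate early genes only Egr1, with -0.58 ± 0.12 in the same comparison. Over all genes 5.90% were called in that comparison, 4.64% in C3H minus B6 and 5.74% in WSB minus C3H.

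Apart from Syt1, the calls given here on single genes outside the 35 varied in fits that left out a mouse. Those on Cryab and Serpinh1 passed in all 6 fits, and each of the others passed in 0 to 3 of 6. The call on Syt1, a neuron marker, was not followed in these fits.

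Within WSB, replicate 2 had the highest value of the 3 mice for 21 of the 35 genes, among them Hspa1a, Hspa1b, Hspe1, Stip1 and Hspa5. The summed level of the immediate early genes was 356 FPKM in that mouse against 231 and 290 in the other WSB mice, and that of the glucocorticoid-responsive genes was 144 against 108 and 90.8. Whether these levels had a part in its chaperone values was not tested. Without WSB replicate 2, limma with Benjamini-Hochberg adjustment called 2 of 35 genes in WSB minus C3H, against 3.30% of all genes. They were Hspa1a with -1.03 (adjusted p = 0.0371 by limma) and Hspa5 with -0.48 (adjusted p = 0.0351). In C3H, replicate 2 likewise had the highest value for 21 of the 35 genes, and in B6 replicate 3 for 20. The median coefficient of variation of the 35 genes was 8.64% in B6, 7.92% in C3H and 9.004% in WSB, and it was highest for Hspa1b in B6 with 24.5% and in WSB with 36.8%, and for Chordc1 in C3H with 28.8%.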

How the data were processed

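Cortex RNA of 9 male mice, 3 from each strain, was analysed. The authors used Cutadapt for trimming, HTSeq for counts per gene and DESeq2 for testing, and the values they deposited are FPKM for each gene in each mouse. The submitters' processing notes also list STAR, and no versions are given in the sources used here. The sample labels gave the strain and replicate number of each mouse, and 0 columns of values were left unused. Each FPKM value multiplied by gene length was a whole multiple of 1 step per library in 100% of values (tolerance 0.05), which returned the reads used for depth, counting intervals and voom weights. Mice of the same strain differed by a chi-square of 7.87 to 24.12 per gene, more than sampling noise gives.

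Strains were compared with limma 3.58.1, run in R 4.3.3 (two-sided, lmFit and then eBayes with its trend option). It was applied to log2(FPKM + 0.1) of all genes whose mean reached 0.1 FPKM in the 6 mice compared, with Benjamini-Hochberg adjustment over all genes tested and a threshold of 0.05. A fold change on this scale understates the change of low genes. The scripts were tested on simulated data. Replicate numbers did not pair the mice. Coordinates are those of the deposited table, and 33 of the 35 genes had the same ones in GENCODE M21 (GRCm38), which gave the GC content of the longest transcript. Similar transcripts were searched with blastn 2.17.0 (at least 90% identity over 300 bases). Promoters are from RefSeq (GRCm38.p6). Figures were drawn with matplotlib 3.10.9.

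The members and lists were chosen with earlier results of these data known. All 35 genes are named. Those called in a comparison, the heat shock factors, Hspa1a, Hspa1b and the gene with the largest change in each group of functions are given in every mouse, and the rest by means. From the wider lists the called genes are named, at most the 5 largest where more than 5 passed, with Cirbp and Rbm3 in any case. Alternatives were voom weights, removal of GC trends, the replicate block, a fit of all 3 strains, no trend in eBayes, pseudocounts of 0.01 and 1, a filter of 1 FPKM or none, rescaling by median ratios, Hspa1a and Hspa1b summed, and the omission of each mouse in turn. A rescaling by total reads was chosen after seeing the data. The library scaling of the deposited values was already proportional to median-ratio size factors, so rescaling by median ratios could change almost nothing. Summing Hspa1a and Hspa1b likewise could hardly change the fit of any other gene. Both are counted among the alternatives.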

Additional observations from a re-analysis of the deposited data

How the results depend on the processing

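The count of called genes among the 35 moved with several alternatives, as did the share of all genes called, which ranged over the alternatives from 2.33% (replicate block) to 11.2% (without C3H replicate 2) in C3H minus B6, from 3.13% to 7.43% in WSB minus B6, and from 2.29% to 9.71% in WSB minus C3H. In C3H minus B6 it was 1, and it became 2 with all 3 strains in one fit, 2 with voom weights, 2 when rescaled to total reads (chosen after seeing the data), 4 with the GC trend removed and 0 with the replicate block, and it ranged from 0 to 6 when a mouse was left out. In WSB minus B6 it was 0, and 1 with a filter of 1 FPKM, with all 3 strains in one fit and with voom weights, each time Hspa8, and it stayed at 0 when a mouse was left out. In WSB minus C3H it was 0, and 2 with a filter of 1 FPKM, 3 with all 3 strains in one fit, 3 with voom weights and 1 with the GC trend removed, and it ranged from 0 to 5 when a mouse was left out, with the highest count without C3H replicate 2.

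The log2 fold change of Hspa8 in C3H minus B6 lay between -0.59 and -0.46 in 18 alternatives and passed in 14 of them. The 14 include the median-ratio rescaling and the sum of Hspa1a and Hspa1b, which could hardly change this value. With the replicate block it was -0.55 with an adjusted p of 0.0872 by limma, and it ranged from -0.59 to -0.51 when a mouse was left out. In WSB minus B6 it was -0.46 and passed with a filter of 1 FPKM (-0.46), with all 3 strains in one fit (-0.46) and with voom weights (-0.46). The replicate numbers did not pair the mice: same-numbered mice had correlations of their deviations from -0.065 to 0.053. Of the other 38 fold changes of single genes followed, 1 reversed, Hspa1b in C3H minus B6, which was -0.12 and ranged from -0.271 to 0.0596 when a mouse was left out, the latter without B6 replicate 3. Over all alternatives of these 38, the outcome at the threshold was the same 514 times. A call was lost 146 times and gained 21 times. The cause of these changes was not tested. Genes under 10 FPKM such as Hspa1a, with 61 to 213 reads, are limited by depth and by reads shared with a copy.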
